A study of Homo sapiens with 24 samples.

Results

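B cell receptor signalling to NF-kB was described through 9 genes of this route: the receptor chains CD79A and CD79B, the kinases LYN, SYK and BTK, the adaptor BLNK, the phospholipase PLCG2, and BCL10 and MALT1, which act next to the NF-kB kinase. They were chosen by name, and every probe whose gene name in the array files is one of them was taken. That gave 11 of the 41000 probes and 9 of the 30142 genes on the array. BCL10 and MALT1 each had 2 probes and the others 1, and a gene's value is that of its brightest probe unless another probe is named. All 9 genes were well above background in both channels on all 24 arrays, as were 13258 of all genes, and no spot of theirs was saturated, so none was lost to a filter on low values.

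The RNA came from 4 established lines of diffuse large B-cell lymphoma (DLBCL), a cancer of mature B cells. DB and K422 are of the germinal centre B-cell-like type (GCB-DLBCL), and HBL-1 and OCI-Ly3 of the activated B-cell-like type (ABC-DLBCL). Cells were electroporated with 1 µM of an siRNA against the transcription factor FOXP1, siFOXP1_308 or siFOXP1_309, or of a control siRNA, siCtrl, and harvested after 48 h. Each line and siRNA had 3 replicates, each hybridised as siFOXP1 RNA in Cy3 against siCtrl RNA in Cy5 on 1 array. The siCtrl cells are therefore electroporated cells and not untouched ones, and because the dyes were never exchanged, a dye bias of a probe and an effect of silencing cannot be told apart within a line. Each subtype is represented by 2 lines, and each line is a single established culture. HBL-1 is known to carry an altered CD79B.

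The B cell receptor is a membrane immunoglobulin joined to the CD79A and CD79B chains, whose cytoplasmic tails carry tyrosine motifs. When the receptor is engaged, LYN phosphorylates these motifs, SYK docks on them and is activated, and SYK phosphorylates the adaptor BLNK, which brings BTK together with its substrate PLCG2. The second messengers made by PLCG2 activate protein kinase C beta, and a complex that holds BCL10 and MALT1 then switches on the IKK kinase that releases NF-kB. ABC-DLBCL is known for constant NF-kB activity fed by this route.

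The labels were checked on the same arrays. FOXP1 was lower with siFOXP1 on all 24 arrays, with mean log2 ratios (± SD, n = 6 arrays) of -2.00 ± 0.79 for DB, -1.34 ± 0.47 for K422, -1.74 ± 0.55 for HBL-1 and -1.96 ± 0.54 for OCI-Ly3. All 7 B cell markers were well above background in each line, on at least 4 of its 6 arrays. Of 8 markers of the ABC type, 4 were above background in K422, 6 in DB and 8 in both ABC-DLBCL lines, and IRF4 and CCND2 were at background in DB and K422. Of 7 markers of the GCB type, 7 were above background in DB and in K422, 6 in OCI-Ly3 and 5 in HBL-1. MME, which encodes CD10 of germinal centre cells, was at background in HBL-1 and OCI-Ly3, whereas the GCB marker LMO2 was highest in OCI-Ly3, with 9.84, and read 9.17 for DB and 8.67 for K422. Of 8 T cell markers, 1 was above background in DB, 2 in OCI-Ly3, 3 in HBL-1 and 4 in K422, whose summed signal was 13885 against 1833 to 3986 in the other lines. CD3D and CD3G were at background in all lines but K422, where CD3D read 11.73 (log2 Cy5), and CD4 was above background on every array, with levels of 11.90 (HBL-1), 11.68 (K422), 11.05 (DB) and 10.77 (OCI-Ly3). The 6 myeloid markers summed to 214 to 399 in every line. These are bulk RNA measurements, so fewer cells of a kind and less RNA per cell cannot be told apart.

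The sequences measured are shown for 3 members on which the results below turn, the receptor chain CD79B, the adaptor BLNK and the kinase BTK. They are the 60-base array probes as the files give them, placed by the files on hg18.
CD79B, chr17:59360885-59360944, minus strand: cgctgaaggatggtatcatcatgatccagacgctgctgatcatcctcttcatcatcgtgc
BLNK, chr10:97946676-97946735, minus strand: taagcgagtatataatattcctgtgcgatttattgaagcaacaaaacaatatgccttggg
BTK, chrX:100494990-100495567, minus strand: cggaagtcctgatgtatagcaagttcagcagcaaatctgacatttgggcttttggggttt
The BTK probe spans 578 bases of the genome with its 60 bases, so it reads RNA joined across an intron, whereas the CD79B and BLNK probes each lie in 1 unbroken stretch. LYN and SYK were each printed on 10 spots of every array, and their ratios varied between spots by a median SD of 0.036 and 0.032 on the log2 scale.

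FOXP1 belongs to the forkhead family, which binds AT-rich DNA, so the 250 bases before the annotated starts of the members were read on both strands for 8 forms of a forkhead core word, TGTTTAC and the forms of it that have A at the second place, G at the sixth or T at the last, alone or together. The sequences are from RefSeq on GRCh38.p14, which holds 10 starts of 7 members and none for CD79B and LYN. Of the 10 starts, 1 held a word, that of BLNK, and 22% of 35116 starts of all genes held 1 or more. The BLNK sequence is printed with the word in capitals, beside that of CD79A, the receptor chain described first, which held none.
BLNK, chr10:96271570-96271819, minus strand: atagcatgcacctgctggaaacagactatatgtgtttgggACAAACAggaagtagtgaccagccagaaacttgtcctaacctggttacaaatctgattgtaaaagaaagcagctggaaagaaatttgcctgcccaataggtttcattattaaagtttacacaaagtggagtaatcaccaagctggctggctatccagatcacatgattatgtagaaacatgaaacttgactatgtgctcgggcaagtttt
CD79A, chr19:41877029-41877278, plus strand: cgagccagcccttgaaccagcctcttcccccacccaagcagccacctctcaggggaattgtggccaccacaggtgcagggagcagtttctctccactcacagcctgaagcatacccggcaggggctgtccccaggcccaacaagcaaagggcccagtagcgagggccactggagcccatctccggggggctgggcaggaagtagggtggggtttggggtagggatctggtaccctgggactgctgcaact
A match of letters is a description of the sequence and shows no binding, and the absence of a match covers only these words in these 250 bases.

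The first question was how much of each component the lines carry before FOXP1 is silenced. The control level is the log2 Cy5 signal of siCtrl RNA, with the 2 arrays of a line and replicate averaged, which gives 3 values a line. Levels were compared between lines for 1 probe at a time and never between probes. Besides those printed, the brightest probes lie at chr19:47077196-47077255 for CD79A, chr8:57085383-57085442 for LYN, chr9:92697963-92698022 for SYK, chr16:80549076-80549135 for PLCG2, chr1:85505539-85505598 for BCL10 and chr18:54565859-54565918 for MALT1, on hg18. A difference was called when limma's adjusted p, over all genes, was under 0.05 and the size was at least 1 on the log2 scale, which is 2-fold. DB and OCI-Ly3 shared 1 scan and software version, and K422 and HBL-1 the other. A difference between lines of different scans, such as HBL-1 and OCI-Ly3 or DB and K422, cannot be told apart from one between scans.

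The receptor chains differed widely between lines, and the order did not follow the subtype. CD79A, which carries the first of the signalling tails, read 14.57, 14.54 and 14.64 in the replicates of OCI-Ly3, 15.41, 15.63 and 15.50 in those of DB, 15.96, 15.37 and 15.66 in those of K422 and 16.95, 16.48 and 16.67 in those of HBL-1. Its partner CD79B read 12.08, 12.09 and 11.97 for OCI-Ly3, 12.43, 13.07 and 12.88 for DB, 13.60, 13.24 and 13.38 for K422 and 14.62, 14.40 and 14.51 for HBL-1. For both chains all values of OCI-Ly3 were the lowest and all values of HBL-1 the highest, so the ABC-DLBCL lines lay on either side of the GCB-DLBCL lines. Across the scans, HBL-1 exceeded OCI-Ly3 by 4.33-fold for CD79A and 5.51-fold for CD79B. By line mean OCI-Ly3 and DB, which shared a scan, were the lower lines for both chains, and K422 and HBL-1 the higher. For CD79B the values of the scans did not overlap, the nearest being 13.07 in DB and 13.24 in K422. The part of this order that lies between scans cannot be told apart from a difference between scans. DB and K422 overlapped for CD79A and were not told apart (limma adjusted p = 0.501), while for CD79B they did not overlap and K422 was 0.62 higher (adjusted p = 0.00908).

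The 3 kinases were lowest in DB and highest in OCI-Ly3. LYN, the kinase that starts the cascade, read 9.06, 8.25 and 8.30 in the replicates of DB, 12.37, 12.04 and 11.95 in those of K422, 13.53, 13.56 and 13.42 in those of HBL-1 and 13.79, 13.65 and 13.70 in those of OCI-Ly3. Its line means spanned 36.2-fold, wider than in 98.1% of the 13204 genes well above background in both channels with a value in every replicate. DB stood far below the other lines, K422 lay between, and HBL-1 and OCI-Ly3 were not told apart (limma adjusted p = 0.467) although their values did not overlap. SYK, which is recruited to the phosphorylated chains, read 12.17, 12.49 and 12.44 for DB, 12.93, 12.66 and 12.71 for K422, 13.48, 13.47 and 13.54 for HBL-1 and 14.27, 14.25 and 14.26 for OCI-Ly3. No 2 lines overlapped for SYK, and each step of the order had an adjusted p under 0.05, the smallest step being 0.40 between DB and K422 (adjusted p = 0.0135). BTK, which activates PLCG2, read 9.07, 9.05 and 9.30 for DB, 10.83, 11.04 and 11.07 for K422, 11.1, 11.50 and 11.45 for HBL-1 and 11.90, 11.86 and 11.80 for OCI-Ly3. For BTK the wide gap was between DB and the other lines, 1.84 to K422, while K422 and HBL-1 came within 0.03 of each other at their nearest values (difference of the means 0.37, adjusted p = 0.0428).

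BLNK and PLCG2, which meet at the receptor, differed in another order. BLNK, the adaptor on which BTK and PLCG2 assemble, read 8.63, 8.49 and 8.22 in the replicates of K422, 9.97, 10.12 and 10.11 in those of DB, 11.16, 10.90 and 10.92 in those of HBL-1 and 11.19, 10.93 and 10.95 in those of OCI-Ly3. Here K422 and not DB was the lowest line, by 1.62 against DB (limma adjusted p = 2.25e-06), and HBL-1 and OCI-Ly3 overlapped (adjusted p = 0.890). PLCG2, the phospholipase, had line means (± SD, n = 3) of 14.46 ± 0.10 for OCI-Ly3, 14.48 ± 0.25 for DB, 15.22 ± 0.08 for K422 and 15.49 ± 0.17 for HBL-1. OCI-Ly3 and DB were not told apart for it, nor were K422 and HBL-1 (adjusted p = 0.921 and 0.162). Each of these pairs shared a scan, and the PLCG2 values of the scans did not overlap, 14.20 to 14.69 against 15.16 to 15.67. The split between these pairs therefore cannot be told apart from a difference between scans.

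BCL10 and MALT1, which act together in front of IKK, had line means that spanned 1.55-fold and 2.01-fold. BCL10, which forms the filament of the complex, had line means of 8.77 ± 0.04 for DB, 9.02 ± 0.09 for K422, 9.29 ± 0.15 for OCI-Ly3 and 9.40 ± 0.21 for HBL-1, and no neighbouring lines were told apart. MALT1, the protease of the complex, had 10.42 ± 0.30 for K422, 10.59 ± 0.18 for DB, 11.40 ± 0.05 for HBL-1 and 11.43 ± 0.07 for OCI-Ly3 (SD, n = 3). By the brightest probes both GCB-DLBCL lines lay below both ABC-DLBCL lines, with no overlap of their values.

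**Figure D1:**
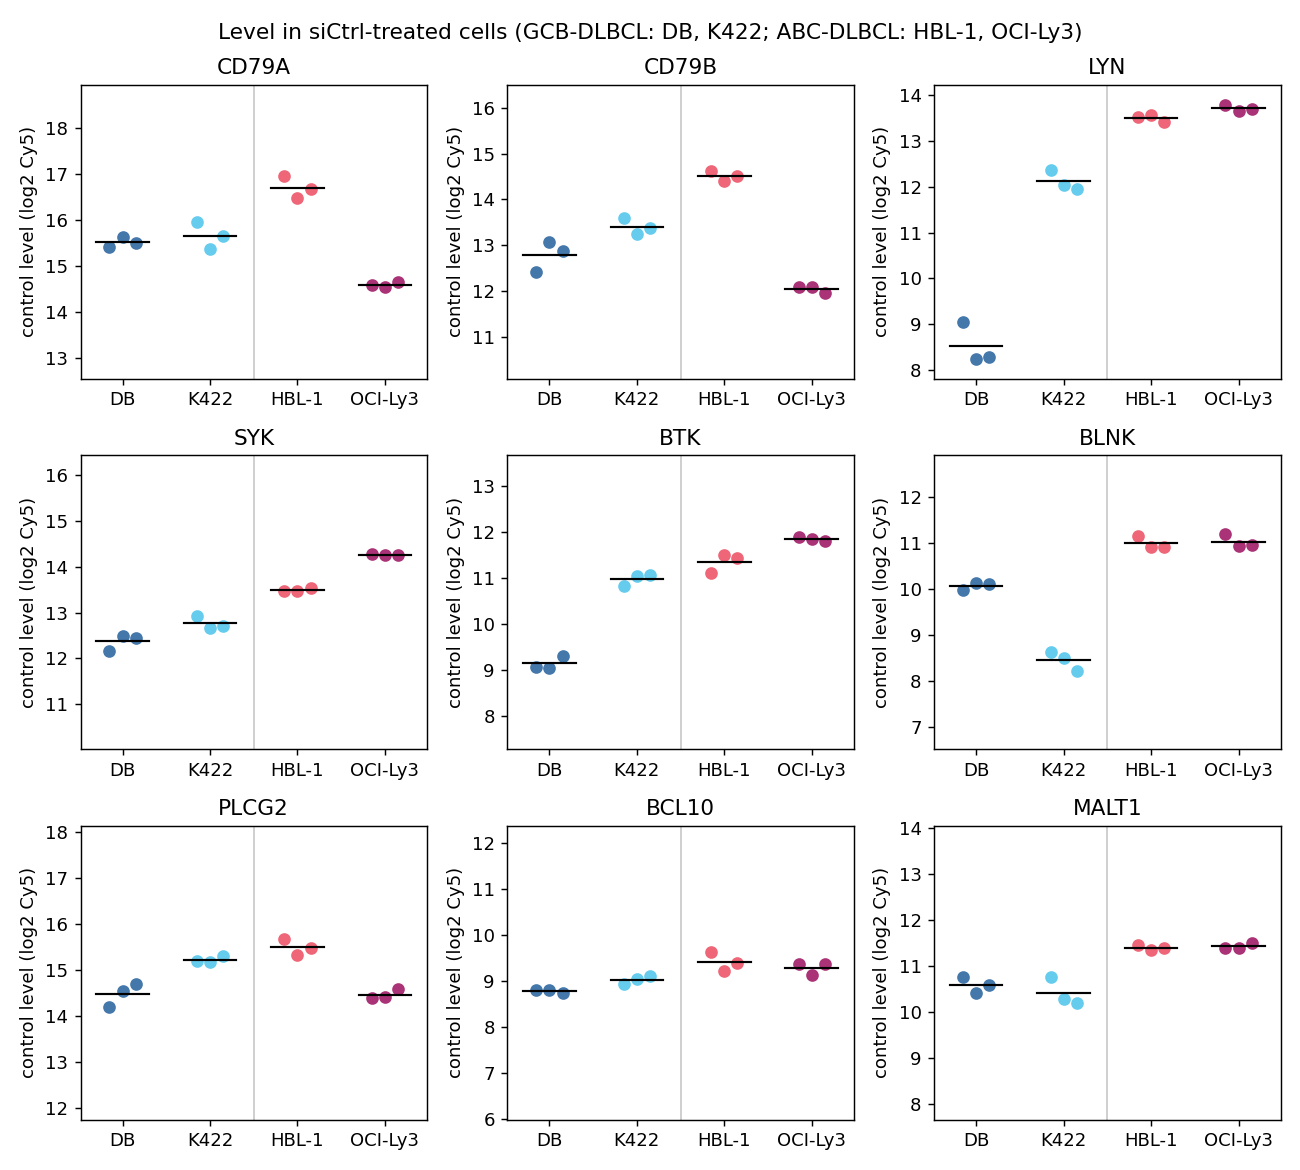
Control level (log2 Cy5 signal of siCtrl RNA) of the 9 genes by line, with 1 point for each of 3 replicates and a line at the mean. Every panel has the same span of the log2 axis, and a grey line parts GCB-DLBCL from ABC-DLBCL. LYN in DB sits at 8.25 to 9.06, far below the other lines, while CD79A and CD79B are lowest in OCI-Ly3 and highest in HBL-1.

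Between the subtypes, LYN, SYK, BTK and BLNK were higher in the ABC-DLBCL lines, and none of the 9 genes was lower. These were 4 of 9 genes, where 10.6% of all genes were called higher and 11.1% lower in the same comparison. The mean of HBL-1 and OCI-Ly3 exceeded that of DB and K422 by 3.28 ± 0.14 for LYN (SE, limma adjusted p = 7.75e-09), by 1.75 ± 0.10 for BLNK (adjusted p = 5.11e-08), by 1.54 ± 0.09 for BTK (adjusted p = 1.27e-07) and by 1.31 ± 0.08 for SYK (adjusted p = 1.35e-07). As folds these were 9.71, 3.37, 2.91 and 2.48.

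MALT1 was higher by 0.91 (limma adjusted p = 2.99e-05) and BCL10 by 0.45 (adjusted p = 0.00133), both under the size asked for. The dimmer MALT1 probe, at chr18:54567454-54567513, gave 1.09 and passed it, whereas the dimmer BCL10 probe, at chr1:85504225-85504284, gave 0.15 (adjusted p = 0.311). That BCL10 probe was well above background in the control channel on 21 arrays, and it was 1.14 higher in K422 than in DB, against 0.25 by the brighter probe. CD79A, CD79B and PLCG2 differed between the subtypes by 0.05, 0.18 and 0.12, with 95% intervals of -0.20 to 0.31, -0.08 to 0.43 and -0.10 to 0.35. The median difference of the 9 genes was 0.91 and that of all genes -0.08.

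For 6 of the 9 genes, LYN, SYK, BTK, BLNK, BCL10 and MALT1, all 6 values of the ABC-DLBCL lines lay above all 6 of the GCB-DLBCL lines, as they did in 6.21% of genes. The margin was wide for LYN, where the lowest ABC-DLBCL value was 13.42 and the highest GCB-DLBCL value 12.37. It was narrow for BTK, with 11.1 against 11.07, and for BCL10, with 9.12 against 9.10. By the dimmer BCL10 probe the subtypes were not separated, as K422 read 5.99 to 6.10 and the highest ABC-DLBCL value was 5.75, in HBL-1.

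Replicates of a line are not further lines, and with the 4 line means as the units limma called none of the 9 genes (LYN adjusted p = 0.715, BLNK 0.666, BTK 0.776 and SYK 0.568, with 2 of the 9 at an unadjusted p under 0.05). An exact two-sided permutation of 4 lines cannot go below p = 0.333, and 6 of the 9 genes were at that value. DB and OCI-Ly3 shared 1 scan and K422 and HBL-1 the other, so each scan held a line of each subtype. OCI-Ly3 exceeded DB by 5.18 for LYN, 2.71 for BTK and 1.89 for SYK, 3 of 9 genes called higher where 12.1% of all genes were. HBL-1 exceeded K422 by 2.55 for BLNK, 1.38 for LYN, 1.1 for CD79B and 1.04 for CD79A, 4 of 9 called higher where 11.7% were. The CD79A call was lost without HBL-1 replicate 1 (0.91), without K422 replicate 2 (0.89) and with siFOXP1_308 arrays only (0.98). LYN was thus called in both scans, and BTK in the scan that held DB. BLNK was 0.96 higher in OCI-Ly3 than in DB (limma adjusted p = 0.000136), under the size asked for, but passed it at 1.01 with 75th percentile scaling and at 1.003 without OCI-Ly3 replicate 2. On the single slides that held 2 lines, OCI-Ly3 exceeded DB by 5.49 for LYN and 2.59 for BTK, and HBL-1 exceeded K422 by 2.94 for BLNK, 1.58 for LYN and 0.03 for BTK.

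The genes whose control level ran closest to that of the widest-ranging members were looked up among 13259 genes other than the members that were well above background in the control channel on all arrays and had a value in every replicate, by Pearson's r over the 12 values, which fall into 4 lines and share those lines' libraries. Closest to LYN were LGALS3 (r = 0.995), C10orf125 (0.991) and WSB2 (0.991). Closest to BTK were KIAA1143 (0.988), CSK (0.986), which encodes the kinase that holds SRC family kinases such as LYN inactive, and GPATCH2 (0.985). Closest to BLNK were CTNNA1, SH3BP5 and CYTH1, at 0.990, 0.990 and 0.988. LGALS3 had its lowest level in DB like LYN, at 5.87 against 10.61 to 12.48, and SH3BP5 its lowest in K422 like BLNK, at 4.93 against 11.43 to 14.07.

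The second question was whether silencing FOXP1 shifts these components. The response is the log2 ratio of siFOXP1 to siCtrl signal on each array, and a line's response is the mean over its 6 arrays, 3 for each siRNA. It was called when limma's adjusted p was under 0.05 and the size at least 0.5 on the log2 scale, which is 1.41-fold.

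The receptor chains and SYK rose in HBL-1. CD79A ratios in HBL-1 were 0.63, 0.51 and 0.42 with siFOXP1_308 and 0.47, 0.55 and 0.76 with siFOXP1_309. CD79B ratios there were 0.65, 0.45 and 0.54 with siFOXP1_308 and 0.68, 0.50 and 0.74 with siFOXP1_309, and SYK ratios were 0.55, 0.45 and 0.47 and then 0.59, 0.48 and 0.56. For each of these 3 genes all 6 arrays were above 0 and the values of the siRNAs overlapped. The line responses were 0.59 ± 0.11 for CD79B, 0.56 ± 0.12 for CD79A and 0.52 ± 0.06 for SYK (SD, n = 6), with limma adjusted p of 6.85e-06, 1.33e-05 and 3.36e-06. These were 3 of 9 genes called higher in HBL-1, where 5.73% of all genes were, or 1470 of 18407 with dim genes filtered out. The calls depended on the background correction and the dye normalization. With normexp background correction and loess, CD79A was 0.37 and CD79B 0.4998, under the size asked for, and with normexp and centring on the median alone none of the 3 was called and CD79A was -0.16, below 0.

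BLNK in HBL-1 was higher on all 6 arrays, from 0.23 to 0.50 with a median of 0.42, a response of 0.40 that passed the test but not the size (limma adjusted p = 4.17e-05). BTK there ranged from 0.02 to 0.60 with a median of 0.18, and the replicate 1 arrays of both siRNAs, at 0.54 and 0.60, stood above the other 4, which lay between 0.02 and 0.28. Its response was 0.26 (adjusted p = 0.0262). LYN and PLCG2 in HBL-1 were at 0.08 and 0.02, with adjusted p of 0.681 and 0.948. Of the markers of other cells, 2 of 5 for plasma cells, 1 of 8 for T cells and 0 of 6 for myeloid cells were called higher in HBL-1, and their part in these responses was not tested.

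**Figure D2:**
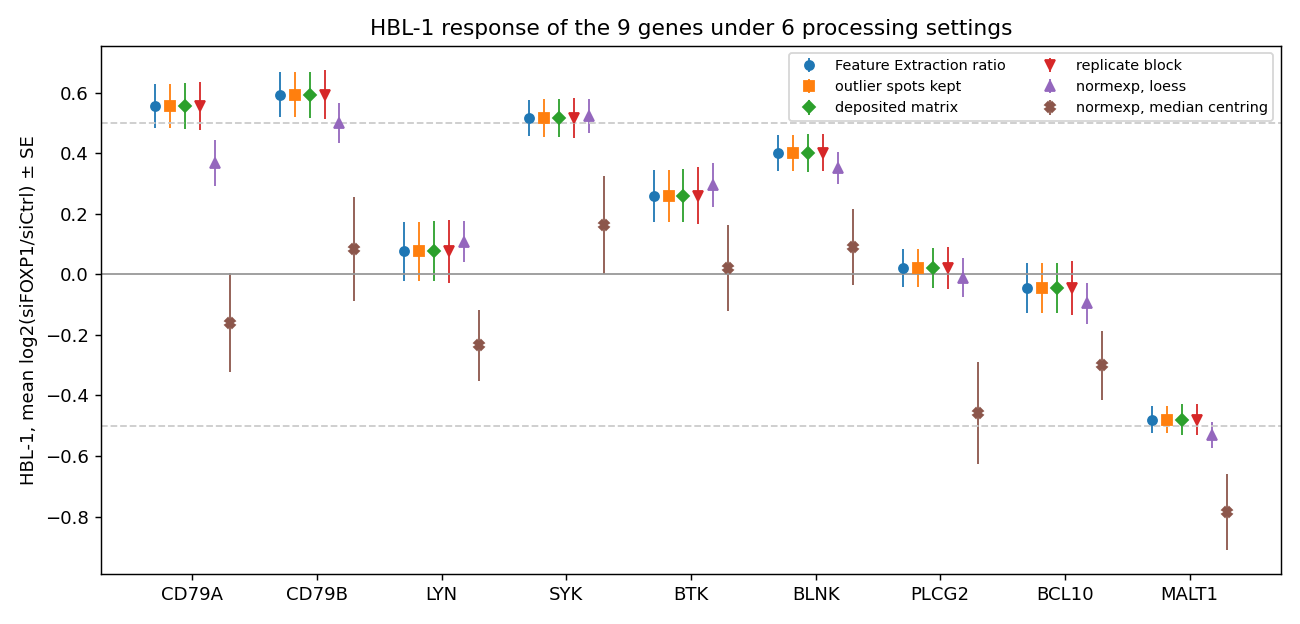
Response of the 9 genes in HBL-1 under the processing settings named in the legend, as the log2 ratio of siFOXP1 to siCtrl. Bars show the SE of the limma fit and dashed lines the size asked for. Median centring after normexp moves CD79A from 0.56 to -0.16 and MALT1 from -0.48 to -0.78.

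MALT1 moved the other way. Its ratios in HBL-1 were -0.48, -0.29 and -0.50 with siFOXP1_308 and -0.53, -0.43 and -0.65 with siFOXP1_309. In the other lines they ranged from -0.33 to -0.16 in DB (median -0.26), from -0.53 to 0.05 in K422 (median -0.18) and from -0.41 to -0.04 in OCI-Ly3 (median -0.21). MALT1 was thus below 0 on 23 of 24 arrays, and the exception was siFOXP1_309 replicate 1 of K422. The line responses were -0.48 for HBL-1, -0.25 for DB, -0.22 for K422 and -0.21 for OCI-Ly3, and the limma adjusted p were 3.06e-07, 0.00103, 0.00156 and 0.00232, so the gene passed the test in all 4 lines and the size in none. It passed the test in HBL-1 alone with siFOXP1_309 arrays only, where K422 was at -0.04, and with normexp and median centring, and in 3 lines, not K422, by the methods' t-test. At any size, 1.79% of genes were lower in all 4 lines. Because the dyes were never exchanged, a dye bias of the probe and an effect of silencing cannot be told apart for this shared shift. The dimmer MALT1 probe gave -0.47 for HBL-1, -0.33 for OCI-Ly3, -0.21 for DB and -0.05 for K422, and the last did not pass (adjusted p = 0.615). BCL10, its partner, ranged from -0.12 for DB to 0.08 for OCI-Ly3 by its brighter probe, with no adjusted p under 0.05. The dimmer BCL10 probe gave 0.17 for HBL-1, above 0 on all 6 arrays, 0.16 for DB, -0.06 for K422 and 0.01 for OCI-Ly3.

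In the other 3 lines limma called none of the 9 genes in either direction, where 2.16% of all genes were called in DB, 4.44% in K422 and 4.42% in OCI-Ly3. At an unadjusted p under 0.05 there were 3 members in DB, 4 in K422 and 3 in OCI-Ly3. In OCI-Ly3, CD79A ranged from 0.05 to 0.40 (median 0.31) and CD79B from 0.06 to 0.39 (median 0.30), on the same side of 0 on all 6 arrays, with responses of 0.28 and 0.25 (limma adjusted p = 0.0123 and 0.0222). In K422, CD79B was at 0.23 (adjusted p = 0.0367), or 0.0712 with the replicate number as a random block, and SYK at 0.20 (adjusted p = 0.0239), while PLCG2 was at -0.29 and below 0 on all 6 arrays (adjusted p = 0.0029). In DB only MALT1 had an adjusted p under 0.05. LYN varied most in DB, where its level was lowest, from -0.78 to 0.45 with an SD of 0.48, against SDs of 0.09 to 0.11 in the other lines. With 10 spots an array, the spot-to-spot SD of LYN's ratio was at most 0.11, so that spread was between arrays.

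**Figure D3:**
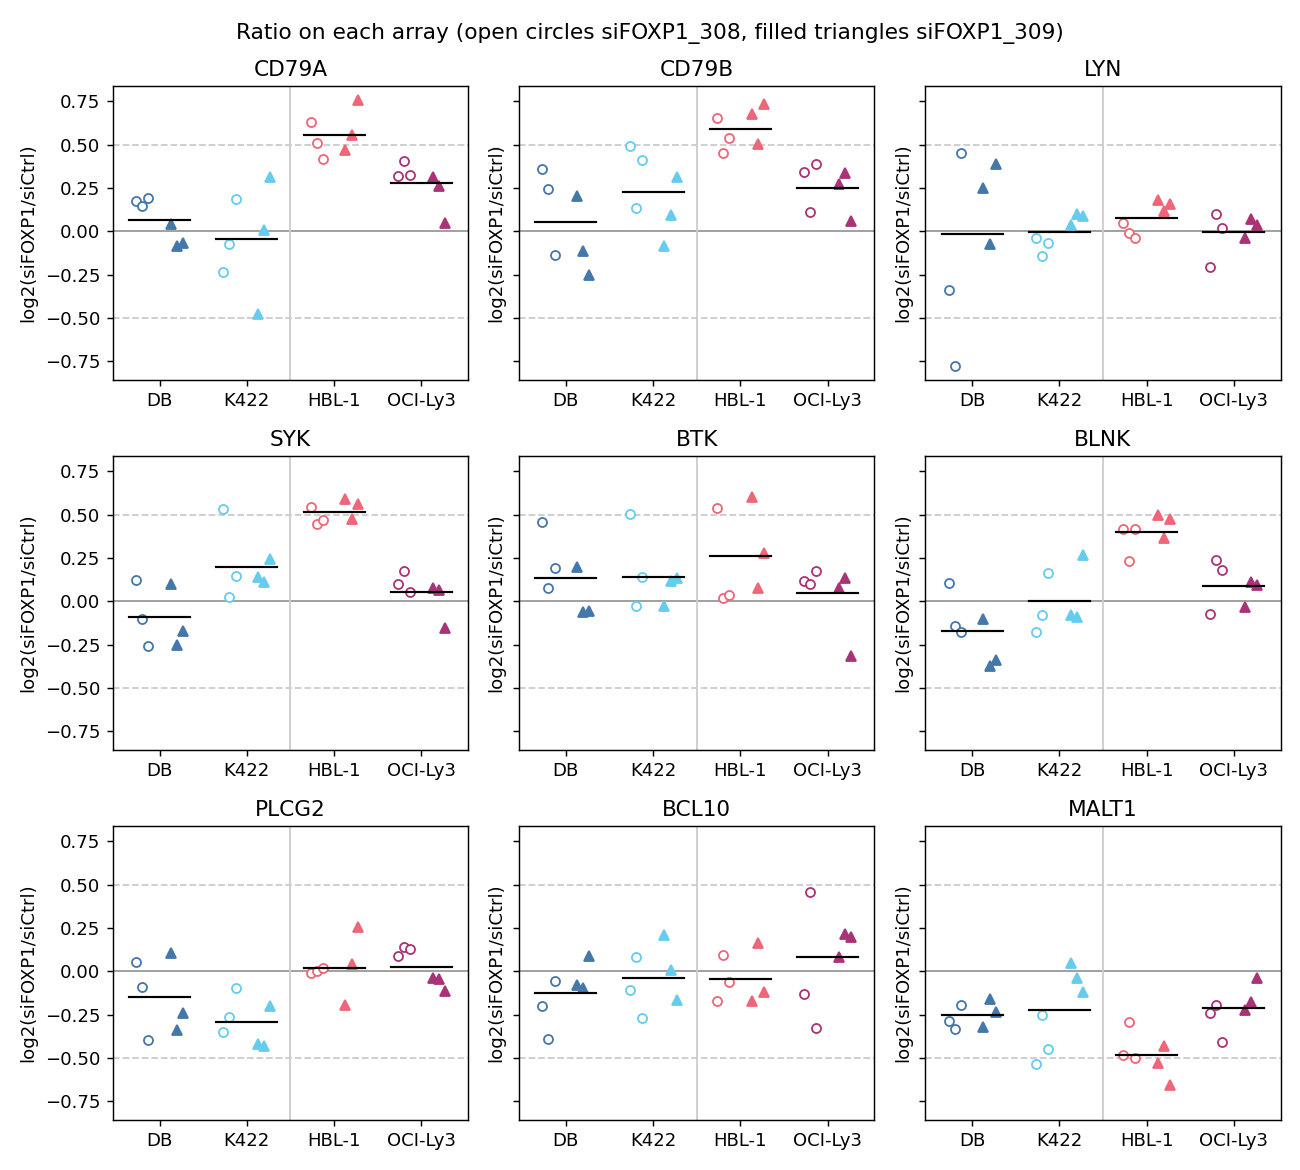
Log2 ratio of siFOXP1 to siCtrl on each of the 24 arrays for the 9 genes, with open circles for siFOXP1_308, filled triangles for siFOXP1_309, a line at the mean of 6 arrays and dashed lines at the size asked for. All CD79A, CD79B and SYK points of HBL-1 lie above 0, and all MALT1 points but 1 in K422 lie below it.

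Whether the response differs between subtypes was tested directly, as the mean of HBL-1 and OCI-Ly3 less the mean of DB and K422. None of the 9 genes was called by limma, where 1.4% of all genes were higher and 0.866% lower, although 6 had an unadjusted p under 0.05. At any size 5 had an adjusted p under 0.05 and a higher mean response over the ABC-DLBCL lines, where 4.52% of all genes did. These were CD79A with 0.41 ± 0.07, BLNK with 0.33 ± 0.06, CD79B with 0.28 ± 0.07, PLCG2 with 0.25 ± 0.06 and SYK with 0.23 ± 0.06 (SE, adjusted p = 0.00183, 0.00181, 0.0226, 0.0214 and 0.0225). CD79B lost this with the replicate number as a block (adjusted p = 0.0521) and PLCG2 with the slide as a block, and with normexp and median centring, or with the 4 line means as units, 0 of the 9 genes had it. With siFOXP1_308 arrays only it was CD79A alone, and with siFOXP1_309 arrays only BLNK alone. With 1 replicate left out, 2 to 5 of these 5 genes had it, CD79A and BLNK each time, and these alone without K422 replicate 2 or without HBL-1 replicate 3. For all 9 genes the ratios of ABC-DLBCL and GCB-DLBCL arrays overlapped. SYK was lower in OCI-Ly3 (0.05) than in K422 (0.20). PLCG2 was 0.02 in HBL-1 and 0.03 in OCI-Ly3, against -0.15 in DB and -0.29 in K422. An exact two-sided permutation of the 4 line responses gave 0.667 for SYK and 0.333, its lowest possible value, for CD79A, CD79B, BLNK and PLCG2. The intervals for LYN, BTK and BCL10 were -0.16 to 0.25, -0.16 to 0.20 and -0.07 to 0.27. MALT1's difference was -0.11 (adjusted p = 0.161), and -0.27 by its dimmer probe (adjusted p = 0.0051).

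The same differences were taken within each scan. HBL-1 less K422 was 0.60 for CD79A (limma adjusted p = 0.00104), the 1 of 9 genes called, where 2.31% of all genes were called higher, and it fell to 0.45 without K422 replicate 1, under the size asked for. The call was also lost with siFOXP1_309 arrays only (0.64, adjusted p = 0.0734) and with normexp and median centring (0.39, adjusted p = 0.822). The same contrast was 0.40 for BLNK, 0.37 for CD79B, 0.32 for SYK and 0.31 for PLCG2, with adjusted p of 0.00494, 0.0326, 0.0235 and 0.0328, and -0.26 for MALT1 (adjusted p = 0.0134). OCI-Ly3 less DB gave none of the 9, with 1 at an unadjusted p under 0.05, where 0.965% of all genes were called higher. Its values were 0.21 for CD79A, 0.20 for CD79B, 0.26 for BLNK, 0.18 for PLCG2 and 0.15 for SYK, on the same side of 0 as in the other scan. These genes were named for a mean of the same contrasts above 0, so their shared sign is no separate support. MALT1 (0.04), BTK (-0.09) and BCL10 (0.21) were on the other side of 0 from the other scan. The single-slide values that follow come from some of the same arrays. On the single slides with 2 lines, OCI-Ly3 less DB and HBL-1 less K422, CD79A differed by 0.25 and 0.30, CD79B by 0.50 and 0.30, SYK by 0.30 and 0.37, BLNK by 0.20 and 0.24 and PLCG2 by 0.34 and 0.05.

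**Figure D4:**
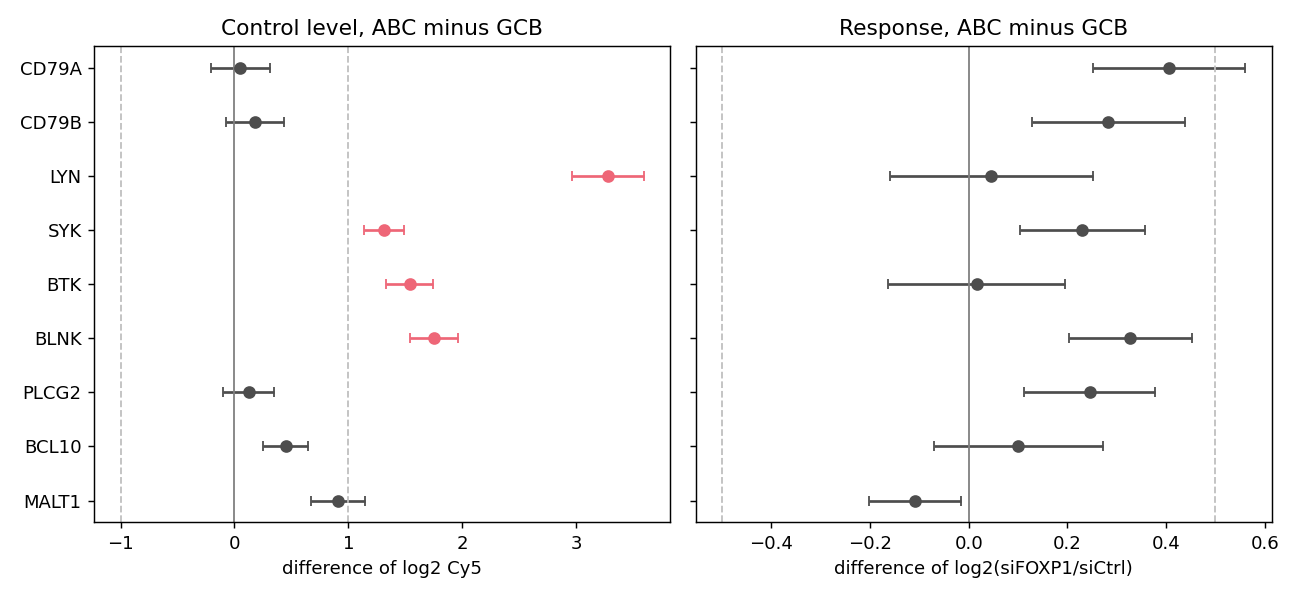
Difference between the subtypes, ABC-DLBCL less GCB-DLBCL, in control level (left) and in response to siFOXP1 (right) for the 9 genes, on log2 scales, with bars for 95% intervals, dashed lines at the size asked for and calls in red. LYN, SYK, BTK and BLNK pass on the left, and no gene passes on the right.

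The siRNAs silenced FOXP1 to different extents, with ratios of -0.91 to -1.48 for siFOXP1_308 and -1.76 to -2.70 for siFOXP1_309 as line means. The 9 genes were compared between them in each line, 36 comparisons in all, and limma called none, where 0.302% (DB), 0.159% (K422), 0.173% (HBL-1) and 0.192% (OCI-Ly3) of all genes were called, with 2 at an unadjusted p under 0.05, LYN in DB (0.41) and MALT1 in K422 (0.38). Taken singly, siFOXP1_308 called 2 members in HBL-1, CD79B with 0.55 and CD79A with 0.52, where 3.71% of all genes were called higher. siFOXP1_309 called CD79B with 0.64, CD79A with 0.59 and SYK with 0.54 higher and MALT1 with -0.54 lower, where 5.99% and 4.84% were. The arrays of the siRNAs may share control RNA.

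Other genes of the route were counted from 4 lists of 54 genes, to be read against the 10.6% of all genes called higher and 11.1% called lower between the subtypes. Of 12 NF-kB target and feedback genes, 7 were called higher in control level in the ABC-DLBCL lines and 0 lower, with a median difference of 1.89. TNFAIP3, which encodes the NF-kB inhibitor A20, was not well above background in K422 and was at least 73.0-fold higher in HBL-1 and at least 123-fold higher in OCI-Ly3. NFKBIE read 15.89 for HBL-1 and 14.70 for OCI-Ly3 against 11.92 for DB and 11.28 for K422, and BCL3 was lowest in K422, at 5.80 against 13.17 to 14.84.

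Of 16 co-receptors and adaptors, 7 were called higher on the ABC-DLBCL side and 1 lower, with a median of 0.61. BANK1, a B cell scaffold that binds LYN, was not well above background in DB and at least 161-fold higher in K422, 166-fold in OCI-Ly3 and 170.5-fold in HBL-1. VAV2, an exchange factor, had line means of 12.04 for HBL-1 and 11.68 for OCI-Ly3 against 8.33 for DB and 8.41 for K422. Of 12 inhibitors of the receptor, 4 were higher and 3 lower. FCGR2B and PAG1 differed by -3.52 and -3.51, and PTPN6, which encodes the phosphatase SHP-1, was higher by 3.03, with 5.26 in DB against 11.63 to 12.02 in the other lines.

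Of 14 genes from protein kinase C beta to IKK, limma called 0 between the subtypes, with 7 at an unadjusted p under 0.05 and a median of -0.05. PRKCB, which encodes protein kinase C beta, was not well above background in OCI-Ly3, and was at least 659-fold higher in HBL-1, at least 29.2-fold in K422 and at least 4.85-fold in DB.

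Over the 4 lines 16 responses of these genes were called, where the share of all genes called was 9.9% for HBL-1, 4.44% for K422, 4.42% for OCI-Ly3 and 2.16% for DB. In HBL-1 they were 5 of 12 inhibitors, with CD22 at 0.89 and CBLB at 0.80 higher and PAG1 at -0.97 lower, and also CSK at 0.73 and FCGR2B at -0.72, which were named after their values were seen. The others in HBL-1 were BLK at 0.62 and BANK1 at 0.51 of 16 co-receptors and adaptors, NFKB2 at 0.57 of 12 NF-kB genes, and RBCK1 at 0.56, IKBKG at 0.50 and CHUK at -0.58 of the 14 genes from protein kinase C beta to IKK. IKBKG and CHUK encode subunits of IKK. In OCI-Ly3 CBLB rose by 0.61 and CSK by 0.53, and in K422 CBLB rose by 0.55 and PTPRC by 0.50. In DB the 1 call was VAV3, at -0.59, a gene not well above background there. Between the subtypes PAG1 alone of the 54 differed in response, by -0.83 (limma adjusted p = 0.00185).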

How the data were processed

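RNA of siFOXP1 (Cy3) and siCtrl (Cy5) cells was hybridised to 24 Agilent two-colour arrays. The authors extracted spot intensities with Agilent Feature Extraction 10.5.1.1 (DB, OCI-Ly3) or 10.7.3.1 (K422, HBL-1), which subtracted local background, normalized the dyes within each array by linear and lowess steps, and gave a log10 ratio of Cy5 to Cy3 per spot. The authors also deposited a log2 ratio matrix made in GeneSpring, used here as an alternative. No array was pooled. Probe positions in the files are on hg18.

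After removal of control and outlier spots, spots of a probe were averaged. The log10 ratio was turned to log2(siFOXP1/siCtrl), and a gene took its brightest probe. Control levels were the Cy5 processed intensities in log2 after Aquantile normalization between arrays, averaged over the arrays of a line and replicate. Both were fitted with limma 3.58.1 in R 4.3.3 over all genes, as a mean per line and siRNA or per line, with Benjamini-Hochberg adjustment, and the scripts were tested on simulated data. Probes well above background in at least 1 channel made up 57.3% to 64.5% of the probes of an array, and precision is limited by how many arrays there are. Bounds ("at least N-fold") set the bright line's mean against the dimmest measurable signal of the dim line.

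The replicate numbers mark separate biological replicates, and the siFOXP1_308 and siFOXP1_309 arrays of a number shared a slide. Within a line their deviations correlated by 0.0468 to 0.284 over all genes, and over genes well above background by 0.200 to 0.742 for ratios and 0.470 to 0.943 for control levels, so the 6 arrays of a line are 3 pairs. Across lines the same number correlated by -0.0687 to 0.301, so it pairs no samples there. The p-values measure the spread between these arrays, 3 replicates of single lines. In the main fit the response p-values count the 6 arrays of a line as separate, without this pairing.

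The members and gene lists were chosen with earlier results of these data known. One further gene of the route is not reported here. Named beside the members were FOXP1, the up to 3 genes of each list with the largest called difference, and the 3 genes closest in level to the 3 widest-ranging members. Alternatives were other background corrections and scalings, the deposited matrix, a filter on dim genes, outlier spots kept, the mean over probes, the methods' t-test, blocks for replicate and slide, single siRNAs, the 4 line means and each replicate left out.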

Additional observations from a re-analysis of the deposited data

Results flagged for a closer look

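Among 36 groups of 6 arrays (a member in a line), 3 held 1 array far from the other 5, a gap that chance gives in about 1 of 20 groups. BTK in K422 was 0.50 on the array of siFOXP1_308 replicate 1, where the next highest was 0.14. In OCI-Ly3, siFOXP1_309 replicate 3 was the lowest array for both BTK, at -0.31 with the next at 0.08, and SYK, at -0.15 with the next at 0.06. The response of CD79A differed between HBL-1 and K422 by 0.60, tested as the difference itself in the limma fit, and by 0.45 without K422 replicate 1, which includes the K422 array named above.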

How the results depend on the processing

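Of the single-gene values under alternatives other than a left-out replicate, 698 responses and 499 control levels kept their call or lack of one. Values called in neither fit were counted here whatever their sign. Another 12 and 14 gained or lost a call, and 1 called response reversed: CD79A in HBL-1, at -0.16 with normexp and median centring. Under that setting members called per siRNA fell from 6 to 1 (3 with normexp and loess) and pathway-list responses from 16 to 10, of which 9 were lower. Among all genes called in HBL-1, 57.9% were higher, 70.8% with loess and 7.79% with median centring; in DB the share went from 61.7% to 22.8% with median centring and 23.9% in the deposited matrix, in K422 from 52.8% to 16.5% and 42.1%, and in OCI-Ly3 from 63.4% to 76.9% with loess and 45.8% in the matrix. The cause was not tested. With the 4 line means as units, 0 of 9 members and 0 of 54 list genes differed in control level, against 4 and 22. Counting every probe, responses per line went from 3 to 5 with siFOXP1_309 arrays only. By the methods' t-test FOXP1 in DB, at -2.00, had an adjusted p of 0.0793. Leaving out 1 replicate gave 2 to 4 members called per line, 4 to 7 per siRNA, 0 to 1 between the siRNAs (1 without DB replicate 3), 2 to 5 per line over every probe, 22 to 26 control levels between pairs of lines, and 4 to 4 between the subtypes. SYK in HBL-1 was 0.49 without HBL-1 replicate 1 and 0.49 with siFOXP1_308 arrays only, under the size asked for, and MALT1 there was called at -0.54 without HBL-1 replicate 2. With the replicate number as a block no call at the stated size changed: the response of CD79A in HBL-1 stayed at 0.56, of CD79B at 0.59 and of SYK at 0.52. Depth is set by signal over background, which was sufficient for all 9 members but for BCL10's dimmer probe.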
